A study of Homo sapiens with 6 samples.

Results

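The BH3-only and effector genes of the BCL2 family were examined in RNA-Seq of RPMI8226 cells. They are 10 genes, 8 BH3-only genes (BMF, PMAIP1, BCL2L11, BID, BBC3, HRK, BAD and BIK) and 2 effectors (BAX and BAK1), chosen by name and matched by Ensembl identifier on the primary chromosomes. The count table lists 63677 genes in all. RPMI8226 is an established human myeloma line, given as wild type (WT) in the sample labels and grown in RPMI1640 with serum. All cells received a recombinant protein at 100 nM for 6 h, either glutathione-S-transferase alone (GST, the control) or GST carrying the first proteoglycan tandem repeat of HAPLN1 (GST-PTR1). HAPLN1 is a matrix protein secreted by bone marrow stroma, and the study asked which genes its PTR1 fragment changes in myeloma cells. Each treatment had 3 libraries, which the labels call biological replicates. The model is 1 cell line at 1 dose and 1 time, and RNA was measured, not protein.

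BH3-only proteins are the stress sensors of the mitochondrial pathway of apoptosis. Through a short helix, the BH3 domain, they occupy the groove of pro-survival relatives such as BCL2, BCL-XL and MCL1, and some of them also activate BAX and BAK. Activated BAX and BAK permeabilise the mitochondrial outer membrane, which releases cytochrome c and leads to caspase activation. Myeloma cells often depend on MCL1 or BCL2 for survival, and drugs that mimic a BH3 domain act on this step.

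The BH3 domain is the sequence that the 10 genes share, so its coding stretch is shown for the 6 genes whose transcripts changed. The stretches were read from GENCODE release 29 transcripts on GRCh38. Each is 48 bases of the coding strand, 5′ to 3′, and capitals mark the codons of the conserved leucine and aspartate.
BMF: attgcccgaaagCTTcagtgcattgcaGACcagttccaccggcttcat
PMAIP1: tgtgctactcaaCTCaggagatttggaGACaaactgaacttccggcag
BCL2L11: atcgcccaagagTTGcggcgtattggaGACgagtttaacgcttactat
BID: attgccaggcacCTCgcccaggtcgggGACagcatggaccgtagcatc
BBC3: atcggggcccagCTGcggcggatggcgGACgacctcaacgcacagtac
HRK: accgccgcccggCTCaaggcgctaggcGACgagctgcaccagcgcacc
These stretches lie in coding exons of BMF at chr15:40104189-40104236 (minus strand), PMAIP1 at chr18:59902661-59902708 (plus strand), BCL2L11 at chr2:111150091-111150138 (plus strand), BID at chr22:17739409-17739456 (minus strand), BBC3 at chr19:47226573-47226620 (minus strand) and HRK at chr12:116881164-116881211 (minus strand). The pattern searched for was a leucine codon, any 3 codons, a codon for a small residue (glycine, alanine or serine), an aspartate codon, any codon and a codon for phenylalanine, leucine, methionine or isoleucine. Each of the 10 genes held 1 match in its principal coding sequence, and 9.94% of all 19974 genes with such a sequence held at least 1.

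Library totals ran from 15202503 to 23453473 counts with GST and from 22874133 to 44688737 with GST-PTR1, so that 3 counts were worth 0.0671 to 0.197 CPM, counts scaled to the library total. Libraries are called smallest, middle and largest by their total within a treatment, and their values are given in that order. The plasma cell gene JCHAIN was at 1383 RPKM (CPM per kilobase of exon) on average with GST and 1260 with GST-PTR1. Of 8 plasma cell markers tested, 3 rose and 3 fell, among them SDC1 (CD138), with a log2 fold change of −1.03. Of 3 T cell markers, CD3D and CD3E had at most 2 counts in any library, and CD8A carried nearly all of their summed level, 5.33 to 5.63 CPM with GST and 2.64 to 3.37 CPM with GST-PTR1. The 4 monocyte markers summed to 0.747 to 1.84 CPM with GST and 0.485 to 0.874 CPM with GST-PTR1, and LYZ had at most 1 count. The 2 erythroid markers summed to 1.62 to 2.89 CPM in all, with HBB at 1 count or less. The epithelial marker EPCAM was at 30.2 RPKM on average with GST and 24.1 RPKM with GST-PTR1. The stromal marker COL1A1 was at 0.0381 and 0.0362 RPKM, with at most 13 counts in any library. The part of these marker levels in the results that follow was not tested. Of 16926 genes tested with edgeR's quasi-likelihood test and Benjamini-Hochberg adjustment, 1549 (9.15%) rose and 1937 (11.4%) fell at an adjusted p under 0.05. With library totals in place of edgeR's TMM factors, these counts were 927 and 3788, and the median change over all genes went from 0.0066 to −0.19 on the log2 scale.

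BMF and PMAIP1 rose most among the 10 genes, BCL2L11 and BID rose less, BBC3 and HRK fell, and BAD, BIK, BAX and BAK1 did not pass the test. That is 4 of 10 genes higher against 9.15% of all genes tested, 2 of 10 lower against 11.4%, and 6 of 10 called in either direction against 20.6%. Of the 2 lower genes, HRK passed the filter on low counts only through the GST libraries, which fixed its direction, and BBC3 lost its call without any of 5 of the 6 libraries. The change was at least 2-fold in BMF and PMAIP1, and in HRK with that limit. The median log2 fold change of the 10 genes was −0.0013, against 0.0066 for all genes tested, with changes in both directions. In bulk libraries, less RNA per cell and fewer cells that carry it cannot be told apart.

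**Figure D1:**
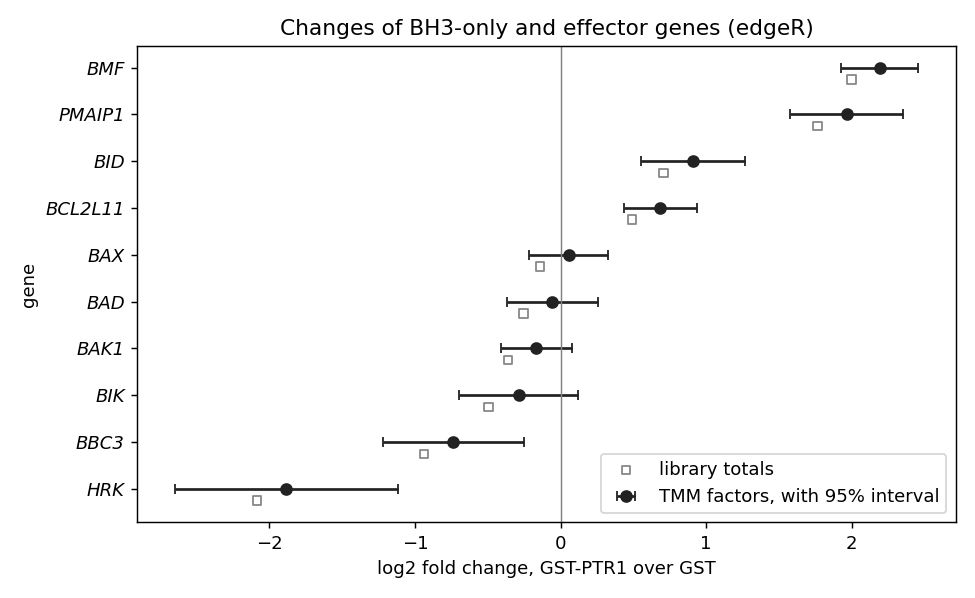
Log2 fold change of each gene in GST-PTR1 over GST libraries (x axis, 3 libraries each), with filled points and 95% intervals from edgeR with TMM factors and open squares from library totals. BMF (2.19) and PMAIP1 (1.97) lie far to the right and HRK (−1.88) far to the left, and the intervals of BAD, BIK, BAX and BAK1 span 0.

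BMF (ENSG00000104081, GRCh37 chr15:40380091-40401093, minus strand) encodes a BH3-only protein that is held on the actin cytoskeleton through dynein light chain 2. Its level was 4.12, 3.37 and 3.44 RPKM in the GST libraries and 14.7, 16.3 and 12.6 RPKM in the GST-PTR1 libraries. The lowest GST-PTR1 library stood well above the highest GST library. The mean level went from 3.64 ± 0.414 to 14.5 ± 1.86 RPKM (SD, n = 3 each). The fitted increase was 4.57-fold (95% interval 3.80 to 5.49), a log2 fold change of 2.19 ± 0.12 (SE), with an adjusted p of 3.92e-07. BMF ranked 235 of 16926 genes by increase. Counts were 341 to 440 with GST and 1833 to 3060 with GST-PTR1, and the antisense gene BMF-AS1, which overlaps 8.46% of its exon bases on the other strand, had 0 counts in every library.

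PMAIP1 (ENSG00000141682, chr18:57567180-57571538, plus strand) encodes NOXA, which binds MCL1 and the BCL2A1 product and promotes the degradation of MCL1. Its level was 7.03, 10.1 and 9.60 RPKM with GST and 26.6, 29.4 and 34.9 RPKM with GST-PTR1. Every GST-PTR1 library lay above every GST library, and the means were 8.89 ± 1.63 and 30.3 ± 4.20 RPKM (SD, n = 3 each). The log2 fold change was 1.97 ± 0.18 (SE; adjusted p = 1.84e-05), a 3.91-fold increase with a 95% interval of 2.99 to 5.11. In the GST-PTR1 libraries it became the BH3-only gene with the highest mean level.

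BCL2L11 (ENSG00000153094, chr2:111876955-111926024, plus strand) encodes BIM, which binds all the main pro-survival proteins and can activate BAX directly. The GST libraries held 20.3, 16.3 and 16.7 RPKM and the GST-PTR1 libraries 26.3, 27.4 and 21.3 RPKM. The groups did not overlap, but the largest GST-PTR1 library and the smallest GST library lay close together. The increase was 1.61-fold (95% interval 1.35 to 1.91), a log2 fold change of 0.68 ± 0.11 (SE), with an adjusted p of 0.00173.

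BID (ENSG00000015475, chr22:18216906-18257536, minus strand) encodes the BH3-only protein that caspase 8 cleaves, which links death receptors to mitochondria. Its level was 5.09, 5.88 and 6.38 RPKM with GST and 7.99, 9.31 and 11.01 RPKM with GST-PTR1. The groups did not overlap, and their means were 5.79 ± 0.649 and 9.44 ± 1.52 RPKM (SD, n = 3 each). The fitted increase was 1.88-fold (95% interval 1.47 to 2.40; log2 fold change 0.91 ± 0.16, SE; adjusted p = 0.00266).

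**Figure D2:**
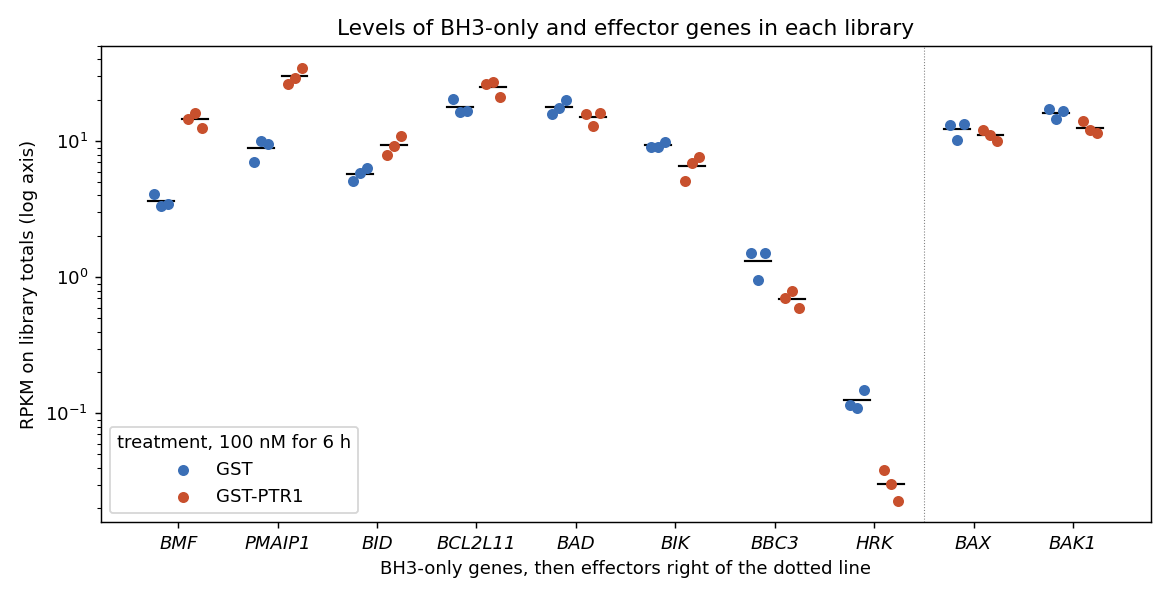
Level of each gene in each of the 6 libraries, as RPKM on library totals on a log axis, with GST and GST-PTR1 points side by side and effectors to the right of the dotted line. BMF moved from 3.64 to 14.5 RPKM on average and PMAIP1 from 8.89 to 30.3, while HRK lay at or below 0.149 RPKM in all libraries.

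BBC3 (ENSG00000105327, chr19:47724081-47736023, minus strand) encodes PUMA, which binds all the main pro-survival proteins. Its level was 1.51, 0.956 and 1.52 RPKM with GST and 0.702, 0.797 and 0.591 RPKM with GST-PTR1. The GST values spread widely, and the middle GST library came nearest to the GST-PTR1 libraries. The log2 fold change was −0.74 ± 0.22 (SE; 95% interval −1.22 to −0.25; adjusted p = 0.0364), a 1.67-fold decrease. The counts were few, 61 to 113 with GST and 51 to 84 with GST-PTR1. The adjusted p was 0.0651 when all libraries were thinned to the smallest total, and it was above 0.05 when any of 5 of the 6 libraries was left out, with values up to 0.145. The call held only without the middle GST library, with an adjusted p of 0.0156.

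HRK (ENSG00000135116, chr12:117293949-117319246, minus strand) encodes Harakiri, a BH3-only protein known mainly from neurons, and it was the lowest of the 10 genes in both treatments. Its counts were 12, 15 and 24 with GST but 6, 6 and 7 with GST-PTR1. These are 0.115, 0.109 and 0.149 RPKM against 0.0383, 0.0304 and 0.0229 RPKM, with no overlap. The log2 fold change was −1.88 ± 0.35 (SE; 95% interval −2.65 to −1.12; adjusted p = 0.00336), a 3.69-fold decrease. HRK passed the filter on low counts only through the GST libraries, where it reached the CPM minimum in 3 of 3 libraries against 0 of 3 with GST-PTR1. A gene that passes in that way had to be lower in the other group, and HRK was not tested under the stricter filter of 10 counts in every library or after thinning.

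BAD and BIK were the BH3-only genes that did not pass the test. BAD (ENSG00000002330, chr11:64037302-64052176, minus strand), whose product binds BCL2 and BCL-XL and is silenced by phosphorylation, was at 16.0, 17.6 and 20.2 RPKM with GST. With GST-PTR1 it was at 15.9, 12.97 and 16.2 RPKM, so the groups overlapped. Its log2 fold change was −0.057 (95% interval −0.37 to 0.25; adjusted p = 0.804). Its exons share 23.7% of their bases with GPR137 on the opposite strand, and the counts were made by strand. BIK (ENSG00000100290, chr22:43506754-43525718, plus strand), which encodes a BH3-only protein of the endoplasmic reticulum, was at 9.11, 9.09 and 9.84 RPKM with GST. The GST-PTR1 libraries held 5.14, 6.91 and 7.73 RPKM, all below the GST libraries. With TMM factors the groups overlapped, and the log2 fold change was −0.29 (95% interval −0.70 to 0.12; adjusted p = 0.289).

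Neither effector passed the test. BAX (ENSG00000087088, chr19:49458072-49465055, plus strand) moves from the cytosol to the mitochondrial membrane when activated, and its levels were 13.2, 10.2 and 13.4 RPKM with GST and 12.2, 11.1 and 10.1 RPKM with GST-PTR1. The groups overlapped, and the log2 fold change was 0.055 (95% interval −0.22 to 0.33; adjusted p = 0.785), or −0.14 with library totals. BAK1 (ENSG00000030110, chr6:33540329-33548019, minus strand) encodes BAK, which resides in the mitochondrial outer membrane. It was at 17.3, 14.7 and 16.7 RPKM with GST and 14.1, 12.1 and 11.6 RPKM with GST-PTR1, a log2 fold change of −0.17 (95% interval −0.41 to 0.08; adjusted p = 0.305). The groups did not overlap on library totals but did with TMM factors. BAK1 values are uncertain, because its processed copy BAK1P1 (GRCh37 chr20:31276723-31278816) held 481 to 974 counts, 80.8% to 87.3% of those on BAK1 in each library, and reads that mapped to several places were left out. The copy had a log2 fold change of −0.16 (adjusted p = 0.366).

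On library totals, 8 of the 10 genes had no overlap between treatments, 4 higher and 4 lower, where 8.71% of all genes tested were higher and 34.4% lower without overlap (43.1% in all). With TMM-scaled totals, 6 of the 10 genes had none, the 6 that passed the test, where 19.2% of all genes tested were higher and 21.2% lower without overlap (40.4% in all).

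The order of the genes by level changed between the treatments. With GST, BAD, BCL2L11 and BAK1 had the highest mean RPKM (17.9, 17.8 and 16.2), and neighbours among them overlapped in range. BAX (12.3), BIK (9.35), PMAIP1 (8.89), BID (5.79), BMF (3.64), BBC3 (1.33) and HRK (0.125) followed, and of these only BIK and PMAIP1 overlapped as neighbours. With GST-PTR1, PMAIP1 (30.3) and BCL2L11 (25) stood first and overlapped. BAD (15.03), BMF (14.5), BAK1 (12.6), BAX (11.1) and BID (9.44) came next. Neighbours among them overlapped, so the order within each neighbouring pair is not resolved. Every BAD and BMF value (lowest 12.97 and 12.57) lay above every BAX and BID value (highest 12.2 and 11.01). Every BAK1 value (lowest 11.6) lay above every BID value. BIK (6.59), BBC3 (0.697) and HRK (0.0305) stood last without overlap.

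Added together per length, the 8 BH3-only genes held 63.3, 63.4 and 67.8 RPKM with GST and 97.5, 103 and 104 RPKM with GST-PTR1. The sum was 1.57 times as high on average (64.9 ± 2.59 and 102 ± 3.64 RPKM, SD, n = 3 each), and the libraries of a treatment lay close together. The effectors summed to 30.4, 24.9 and 30.1 RPKM with GST and to 26.3, 23.2 and 21.7 RPKM with GST-PTR1, which overlapped. The 6 anti-apoptotic genes of the family summed to 122 ± 13.3 and 286 ± 8.0 RPKM (SD, n = 3 each), 2.34 times as high with GST-PTR1. These sums are descriptions, and they were not tested.

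The make-up of the BH3-only sum shifted with it. PMAIP1 went from 13.7 ± 2.41% to 29.8 ± 3.25% of the summed RPKM and BMF from 5.63 ± 0.765% to 14.3 ± 1.98% (SD, n = 3 each, described without a test). BAD went from 27.6 ± 2.22% to 14.8 ± 1.98% and BIK from 14.4 ± 0.0836% to 6.46 ± 1.09%, while neither passed the test for its own level. BCL2L11 held 27.5 ± 4.0% and 24.7 ± 3.67%, and BID held 8.91 ± 0.755% and 9.26 ± 1.2%. BBC3 made up 2.04 ± 0.469% with GST and 0.687 ± 0.107% with GST-PTR1, and HRK less than that in both.

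**Figure D3:**
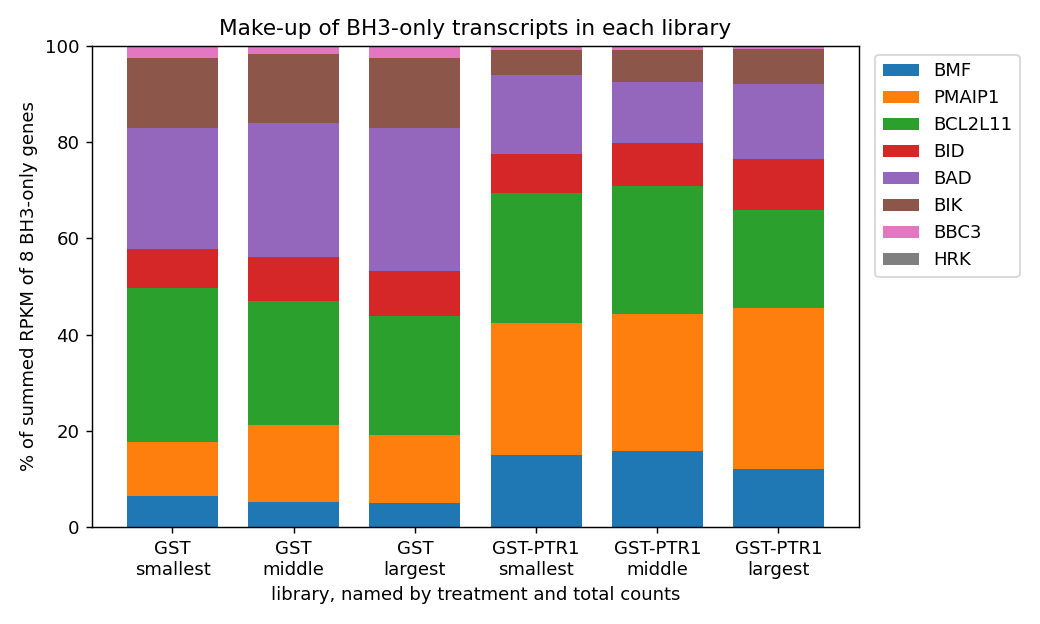
Share of each BH3-only gene in the summed RPKM of the 8 BH3-only genes (y axis, percent), 1 bar for each of the 6 libraries. The PMAIP1 and BMF segments are wider in all 3 GST-PTR1 libraries (29.8% and 14.3% on average) than in the GST libraries (13.7% and 5.63%), and those of BAD and BIK are narrower.

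Ratios within a library do not depend on the scaling between libraries, and 9 pairs were compared. With 3 libraries against 3, the exact two-sided permutation test cannot go below p = 0.1, and each pair reached that value (0.1 after Benjamini-Hochberg adjustment over the 9 pairs). Every pair but BAX to BAK1 held a gene that passed the edgeR test, and the share of all gene pairs without overlap was not computed. The BMF to BCL2L11 ratio was 0.203, 0.206 and 0.206 with GST and 0.559, 0.594 and 0.590 with GST-PTR1. It was thus nearly the same in the libraries of a treatment, and 2.84 times as high with GST-PTR1. The BBC3 to PMAIP1 ratio, PUMA over NOXA, was 0.215, 0.0951 and 0.158 with GST and 0.0264, 0.0271 and 0.0170 with GST-PTR1, 6.44 times lower with GST-PTR1. The BAX to BAK1 ratio was 0.763, 0.699 and 0.804 with GST and 0.863, 0.914 and 0.875 with GST-PTR1, a difference of 0.23 on the log2 scale, and it carries the uncertainty of BAK1.

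The other 6 pairs set a gene against a pro-survival partner. MCL1, the partner of NOXA, was 11.4, 6.50 and 7.25 times as high as PMAIP1 with GST and 6.11, 4.79 and 3.43 times with GST-PTR1, 1.75 times lower as a mean ratio, with the groups almost touching. MCL1 itself rose by a log2 fold change of 1.17, against 1.97 for PMAIP1. BCL2A1, the other partner of NOXA, differed in the other direction, from 0.215, 0.109 and 0.118 times the PMAIP1 level to 1.18, 1.58 and 1.88 times. BCL2A1 over BID was 22.9 times as high with GST-PTR1 as with GST. BCL2 stood at 0.879, 0.869 and 0.848 times the BCL2L11 level with GST and 1.82, 1.74 and 1.80 times with GST-PTR1, below BCL2L11 in every GST library and above it in every GST-PTR1 library. BCL2L1 was 1.92 times as high relative to BAD and 1.76 times relative to BAX. Of these 6 ratios, MCL1 to PMAIP1 was the one that was lower with GST-PTR1.

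**Figure D4:**
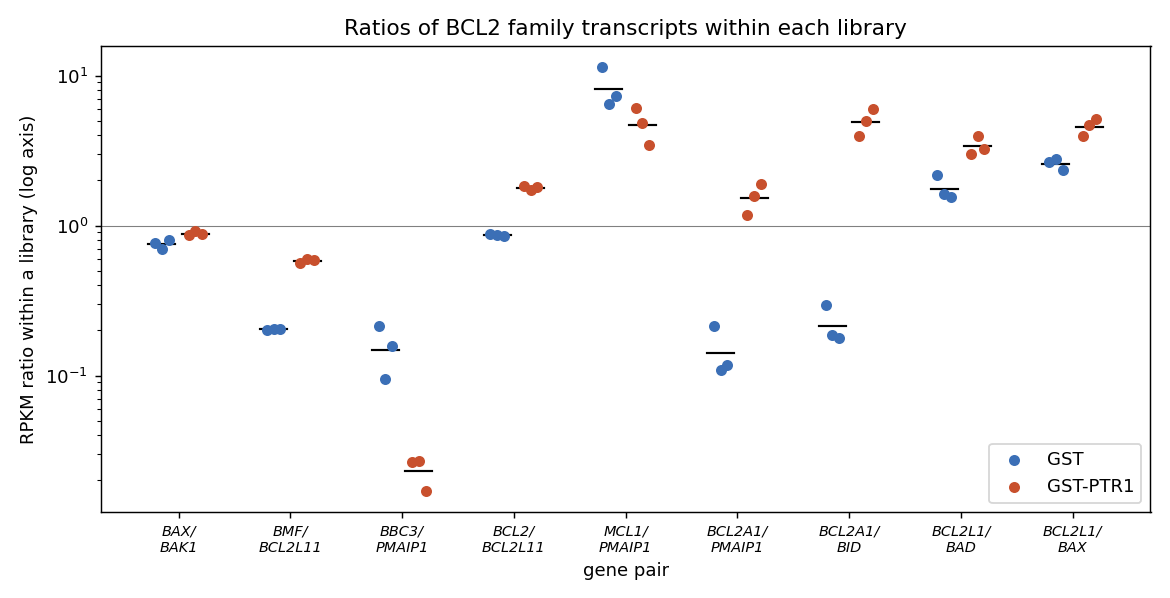
Ratio of the RPKM of the genes of each of the 9 pairs within each library (y axis, log scale), 3 GST and 3 GST-PTR1 points per pair. The groups do not overlap in any pair, and GST-PTR1 points lie below GST points for BBC3/PMAIP1 and MCL1/PMAIP1 and above them for the other 7 pairs.

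Other genes of the pathway were taken from lists, whose counts stand beside 9.15% of all genes tested that rose and 11.4% that fell. In a list of caspases and other machinery of mitochondrial apoptosis, which mostly acts after BAX and BAK, 4 of 16 genes tested rose and 4 fell, with a median log2 fold change of 0.04. Among those that rose were CASP8 (log2 fold change 0.87), whose product cleaves BID and so acts before BAX and BAK, and CYCS (0.63), the gene for cytochrome c. APAF1 (−0.77) and CASP9 (−0.49), whose products form the apoptosome, fell, as did CASP2 (−0.44) and DFFB (−0.62), a nuclease of DNA fragmentation. Of the remaining BCL2 relatives, 2 of 6 tested rose (against 9.15% of all genes) and none fell. Those that rose were BNIP3 (0.57) and BCL2L14, which went from 0.0167 to 0.451 RPKM on average. The calls of CASP9 (adjusted p = 0.0382) and BNIP3 (adjusted p = 0.0335) lay near the threshold, and their results under the alternatives are not reported here. BCL2L14 was at 0 RPKM in the smallest and middle GST libraries and 0.050 in the largest. It passed the filter on low counts only through the GST-PTR1 libraries, which fixed its direction. Of 5 anti-apoptotic genes tested, 4 rose (against 9.15% of all genes) and none fell, and BCL2L2 had a log2 fold change of −0.36 (adjusted p = 0.187).

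Among transcription factors known to induce BH3-only genes, 3 of 11 tested rose (against 9.15% of all genes), namely ATF3 (2.52), HIF1A (1.42) and JUN (1.11). FOXO4 (−0.79) was the 1 that fell (against 11.4%), and the median was 0.27. FOXO3, an inducer of BCL2L11 and BBC3, had a log2 fold change of −0.17 (adjusted p = 0.388). In the list of tethers and modifiers of these proteins, 3 of 13 rose and 3 fell, against 9.15% and 11.4% of all genes. Those that rose were the kinase genes PIM1 (2.23), PIM2 (2.17) and PIM3 (1.30), whose products phosphorylate BAD. Those that fell were DYNLL2 (−0.38), the tether of BMF, RPS6KA1 (−0.48) and MAPK3 (−0.52). BMF (2.19) and its tether DYNLL2 (−0.38) thus changed in opposite directions. The DYNLL2 call lay near the threshold (adjusted p = 0.0343), and its result under the alternatives is not reported here.

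**Figure D5:**
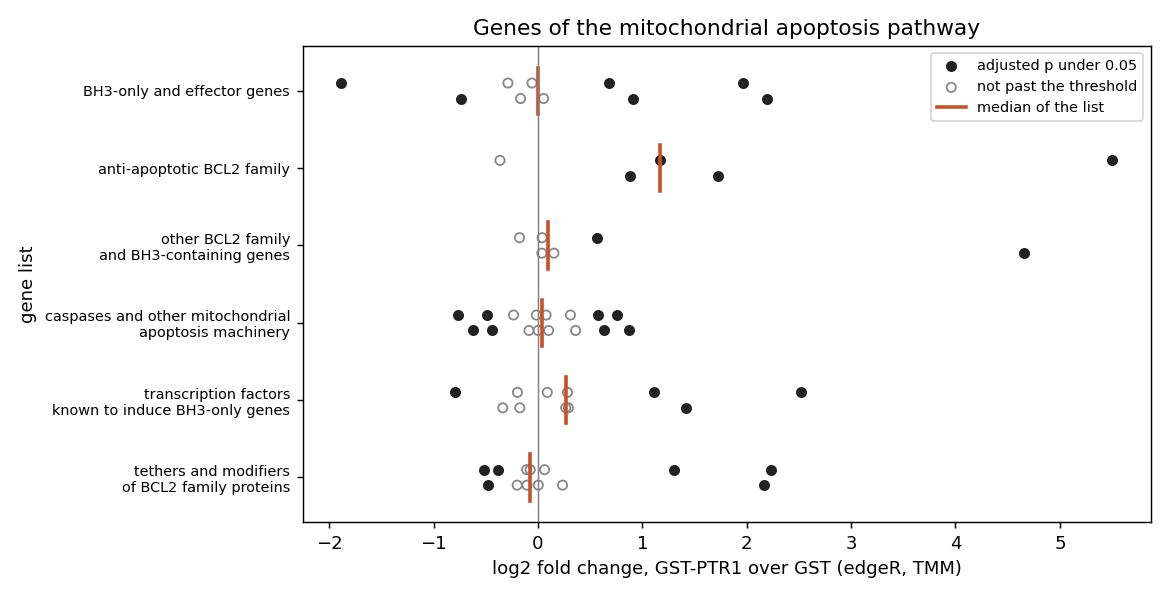
Log2 fold change (x axis) of each gene tested in the 10-gene set and in lists of the mitochondrial apoptosis pathway, with filled points past an adjusted p of 0.05 and a bar at each list's median. The anti-apoptotic list lies furthest to the right (median 1.17), and the other lists have medians between −0.07 and 0.27.

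The genes with the profile most like that of BMF over the 6 libraries were PIM1, PIM2 and NFKB2, with root mean square differences of 0.0678, 0.0750 and 0.0782 in centred log2 CPM. The median difference from BMF over the 13056 genes compared was 1.09. Their log2 fold changes were 2.23, 2.17 and 2.09, against 2.19 for BMF. The genes most like HRK, which fell most, were LINC02982, RNF122 and BAIAP2-DT, at 0.127, 0.133 and 0.140. These distances carry no test, and all of them rest on the same 6 libraries.

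Windows of 250 bases before annotated gene starts were searched on both strands for 5 motifs. The windows were taken from RefSeq on GRCh38.p14, which had 1 or more for 9 of the 10 genes, and none for BIK. A window of BMF and the window of BCL2L11 are shown because each held the single match of its motif among the 9 genes. Capitals mark the NF-kB site in the BMF window (chr15:40108880-40109129, minus strand) and the forkhead motif TGTTTAC, on the opposite strand, in the BCL2L11 window (chr2:111120664-111120913, plus strand).
BMF: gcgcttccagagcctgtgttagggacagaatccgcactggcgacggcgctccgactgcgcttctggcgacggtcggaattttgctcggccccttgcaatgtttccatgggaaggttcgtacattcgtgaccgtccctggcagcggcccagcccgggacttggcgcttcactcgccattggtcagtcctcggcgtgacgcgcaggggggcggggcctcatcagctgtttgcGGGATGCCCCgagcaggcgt
BCL2L11: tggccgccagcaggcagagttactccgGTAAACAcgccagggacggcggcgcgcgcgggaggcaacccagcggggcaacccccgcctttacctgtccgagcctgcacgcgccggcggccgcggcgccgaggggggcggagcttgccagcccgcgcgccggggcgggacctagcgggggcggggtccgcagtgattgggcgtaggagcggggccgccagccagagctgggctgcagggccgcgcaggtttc
The NF-kB site of BMF began 20 bases before the start that follows the window shown, and 11.8% of 27305 genes held such a site. Another BMF window (chr15:40106967-40107216, minus strand), before a different annotated start, held none of the 5 motifs. The forkhead motif of BCL2L11 began 223 bases before the start, and 3.66% of genes held it. Of the 9 genes, 8 held the GC box GGGCGG, against 46.2% of genes, and BBC3 did not. The E-box CACGTG was in 3 of the 9, BAX, BBC3 and BID (7.73% of genes), and BAX held 4 of them, at 138, 93, 45 and 14 bases before the start. BID had several windows. Its E-box lay in the overlapping windows chr22:17773984-17774233 and chr22:17774043-17774292 (minus strand), and its other windows held no E-box. The interferon motif (GAAA, any 2 bases, GAAA) was in none of the 9 (3.71% of genes). A match is a description of letters in these windows and does not show that a factor binds there.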

How the data were processed

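RNA-Seq libraries were prepared from total RNA with a strand-specific mRNA kit, per the labels, from 3 biological replicates of each treatment. The authors deposited raw read counts for each gene, made with featureCounts 1.5.0-p1 on the Ensembl release 75 annotation (GRCh37), together with the exon length of each gene in bases. Reads were counted singly and on the reverse strand, and reads mapping to several places or overlapping several genes were left out. The submitters' processing notes name FastQC, Subread, featureCounts and limma. Subread is a package that holds an aligner as well as featureCounts, and which of its programs aligned the reads, if any, is not stated there. Genes in multiple copies are therefore undercounted, and nothing was normalized before deposit.

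Columns were assigned to a treatment by name. From the deposited counts, RPKM was computed on library totals and exon lengths. Treatments were compared with edgeR 4.0.16 in R 4.3.3 (TMM factors, filterByExpr with a minimum of 10 counts, equal to 0.432 CPM, glmQLFit and glmQLFTest, two-sided) and Benjamini-Hochberg adjustment over all 16926 genes tested. The threshold was an adjusted p of 0.05. Intervals are 95% intervals of the fitted coefficient. Log2 CPM used a prior count of 2, and genes of similar profile had a mean count of at least 50. The test was checked on simulated data with 200 changed genes, as many raised as lowered. No shift of the median change over all genes was built in, so the check does not cover the choice of scaling. No pair of libraries of a treatment agreed within sampling noise (smallest chi-square per gene 7.66). Symbols were matched by identifier for 52181 genes. Every one of the 10 genes is named, and genes of the lists are named where they passed the test or were partners in a ratio or otherwise of known relation to one of the 10. The latter (BCL2L2 and FOXO3) were chosen after their values were seen. For some listed genes, no result is reported here. The genes and lists were chosen with earlier results of these data known. Alternatives were DESeq2 1.42.0 (size factors, or its own test), library totals, voom in limma 3.58.1, filters of 1 count in any or 10 in every library, thinning to the smallest total, TMM-scaled RPKM, and leaving out each library. Fits of the 4 libraries whose column numbers occur in both treatments, with and without that number as a replicate block, were added after seeing the data. Figures were made with Python 3.11.15 and matplotlib 3.10.9.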

Additional observations from a re-analysis of the deposited data

How the results depend on the processing

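BMF, PMAIP1, BCL2L11 and BID were called higher under all 13 alternatives that kept 5 or 6 libraries, with log2 fold changes of 2.00 to 2.27, 1.76 to 2.08, 0.49 to 0.77 and 0.71 to 1.04. HRK was called lower under the 11 alternatives that tested it (−2.09 to −1.70, adjusted p 0.000435 to 0.0251). In all of them but 1, HRK passed the filter only through the GST libraries, which fixed its direction. The exception was the filter of 1 count in any library (−1.85, adjusted p 0.000435). BBC3 kept its direction under all 13 and its call under 7. It lost the call with thinned counts (−0.68), and its log2 fold change lay between −0.92 and −0.61 when libraries were left out (adjusted p 0.0156 to 0.145). BAD and BAX were not called under any alternative and changed sign under some. BAX was at −0.14 with library totals and ran from −0.049 (without the middle GST library) to 0.13 when libraries were left out. BAD ran from −0.15 to 0.052 and was above 0 without the largest GST library or the middle GST-PTR1 library. BIK and BAK1 came closest to a call with library totals (adjusted p 0.052 and 0.0529). The number of the 10 genes called lower was 1 with at least 10 counts in every library and 0 with thinned counts, where HRK was not tested, and 1 to 2 when libraries were left out. Over all genes, 927 rose and 3788 fell with library totals, 2608 rose with 1 count in any library, and 1051 to 1531 rose and 1179 to 1818 fell when libraries were left out. Of 80 RPKM values recomputed, 1 moved by 1 SD or more, that of BIK with GST on TMM-scaled totals (9.35 to 8.74). None of 54 recomputed ratios did. A mean of 3 values cannot move by 1 SD of those values when 1 is left out. All the ratios, and all RPKM values except those on TMM-scaled totals, were recomputed in that way, so this measure could not show a move in them. The labels number the replicates of each treatment 1 to 3, but the numbers in the column names run higher and could not be matched to them. The middle libraries of both treatments share a column number, as do the largest, so these 4 libraries were also fitted alone. Their deviations from the group means had a Pearson r of −0.0305 over 16926 genes, so the number was not taken as a pairing. With it as a replicate block, 1603 genes rose and 1715 fell (1790 and 1848 unblocked). In both fits 4 of the 10 genes were called higher and 1 lower, HRK. BBC3 was at −0.63 with the block (adjusted p = 0.0671) and −0.65 unblocked (adjusted p = 0.0545). HRK and BBC3 had the fewest counts of the 10 genes, so counting error weighs on both, and BBC3 also varied widely among the GST libraries. Intervals from 3 libraries leave modest changes of BAD, BIK, BAX and BAK1 unresolved.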
